A study of Homo sapiens with 9 samples.

Results

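The genes described here are the AP-1 and immediate early factors FOS, FOSB, FOSL1, FOSL2, JUN, JUNB, JUND, EGR1, ATF3 and IER2, taken by name as 10 of the 60675 rows of a table of raw read counts per gene. Their Ensembl identifiers were matched to symbols in GENCODE release 29. RNA came from HCC827, an established cell line grown from a human lung adenocarcinoma and driven by mutant EGFR. The groups were cells stably expressing a non-silencing control hairpin (NS, here control), the hairpin G1 against CBX5 or the hairpin G7 against CBX5, with 3 libraries in each and 9 in all. All cells grew in DMEM with serum, without a drug named in the labels, and all carried a hairpin. The series' design text calls the libraries biological replicates. It does not say whether they came from separate transductions, so p-values measure the spread between these libraries, and each hairpin may be 1 transduced line. The series' title links loss of CBX5, the gene of the heterochromatin protein HP1 alpha, to resistance to EGFR inhibitors.

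AP-1 is a family of dimeric transcription factors in which a Fos protein pairs with a Jun protein, or Jun proteins pair with each other, through leucine zippers. Growth factors acting through EGFR and the ERK kinases switch on FOS, EGR1 and IER2 within minutes, before any new protein is made, which is why they are called immediate early genes. FOSL1 protein builds up under sustained ERK signalling, and ATF3 is also a target of the integrated stress response.

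Of the 10 genes, 8 passed the filter on low counts and were tested, and FOSB and JUNB were listed at 0 in all 9 libraries. With G1, FOS, EGR1, ATF3 and IER2 fell, while FOSL1, JUN and JUND rose and FOSL2 was not called. The call of IER2 with G1 was lost under 4 of 17 alternatives. Of all genes tested, 59.1% were called with G1 and 22.7% with G7. FOS, EGR1 and ATF3 had between 0.490 and 0.534 of their control levels, and FOSL1 rose 1.83-fold. With G7, FOSL1 rose 1.43-fold and JUN 1.14-fold, a call for JUN that 12 of 17 alternatives did not keep, and the other 6 tested genes were not called. The falls of FOS, EGR1 and ATF3 with G1 were also called directly against G7. In RNA from whole cultures, fewer cells using a gene and less RNA per cell cannot be told apart.

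Library totals ran from 12701561 to 22372353 counts, and mitochondrially encoded genes took 13.37% to 19.8% of them. The targeted gene CBX5 had 369 ± 8.11 CPM (reads of the gene relative to library size, scaled by TMM) in control cells, 142 ± 0.595 with G1 and 203 ± 1.54 with G7 (SD, n = 3). The G7 library numbered 3 stood apart. Compared over all genes with G7 replicates 1 and 2, its counts gave chi-square values of 24.7 and 19.5 per degree of freedom. Between those 2 the value was 1.51, the lowest of all pairs. Pairs of control libraries gave 2.83 to 5.28 and pairs of G1 libraries 3.36 to 9.57. G7 replicate 3 also had the largest mitochondrial share, 19.8%. The 8 lung epithelial markers summed to 9629 to 10603 CPM in control libraries, 13746 to 13939 with G1 and 11441 to 12116 with G7, so the groups did not overlap. NKX2-1 and NAPSA of these were listed at 0, and of the 6 tested, 6 rose with G1 (median 0.35) and 3 with G7 (median 0.11). Over all genes tested, 30.4% were called higher with G1 and 13.1% with G7. The 14 fibroblast, endothelial and leukocyte markers summed to 99.9 to 109 CPM in control libraries, 87.5 to 93.8 with G1 and 101 to 107 with G7, and the leukocyte gene PTPRC had 73 counts over all 9 libraries. Most of that sum was PECAM1, at 73.4 ± 5.27 CPM in control cells, 55.7 with G1 and 73.4 with G7, a log2 change of -0.40 with G1. CDH5, the other endothelial marker tested, moved the other way, with 14.04 CPM in control cells, 17.6 with G1 and 14.8 with G7 (log2 change 0.32 with G1, adjusted p = 0.0039 in edgeR). The part of either marker list in the results was not tested.

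The zeros of FOSB and JUNB came with their place in the genome. FOSB (chromosome 19, 45467995 to 45475179, GRCh38) lies wholly inside the span of ERCC1, and JUNB (chromosome 19, 12791496 to 12793315) wholly inside that of HOOK2, each on the opposite strand. Of 1438 protein-coding genes that lie wholly inside another listed gene in GENCODE 29, 1396 (97.1%) were at 0 in all 9 libraries. The share was 96.9% for opposite strands and 97.4% for the same strand, against 17.0% of 9752 genes with no exon base in another gene's span. DUSP1, TIMP1, NKX2-1 and NAPSA were also at 0 and wholly inside another gene. Of 77 ribosomal protein genes, 8 were listed at 0. Of these 8, 4 lay wholly inside another gene and the others did not. The values of FOSB and JUNB are therefore not read as levels, and the Fos and Jun families are described without them. Among the 8 tested genes, IER2 has 36.6% of its exon bases and FOSL2 15.3% inside another gene's span, so their values are uncertain to the extent that counting dropped or shared reads there. FOS, FOSL1, JUN, JUND, EGR1 and ATF3 have 0 such bases.

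**Figure D1:**
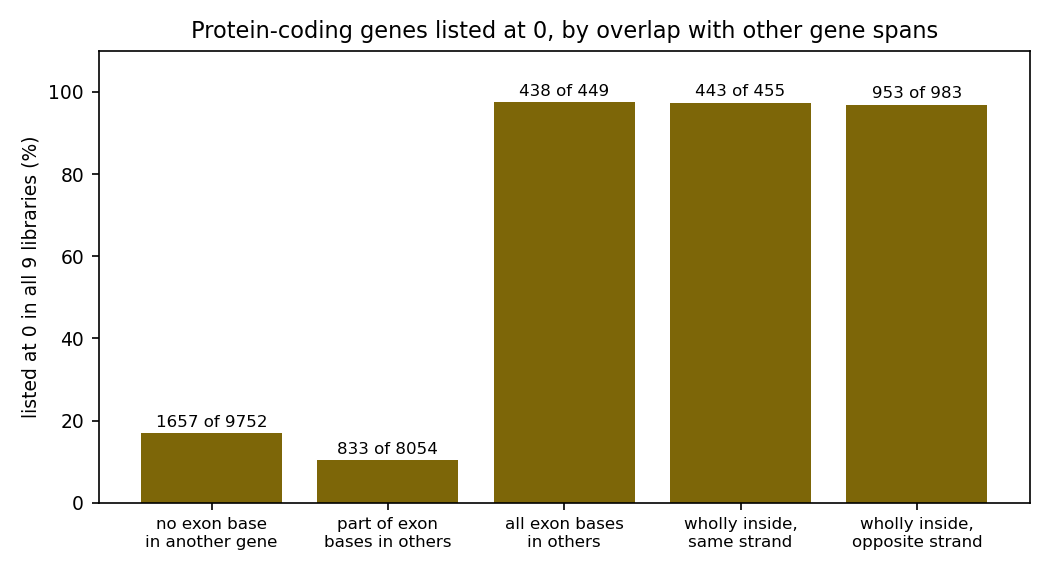
Share of protein-coding genes listed at 0 counts in all 9 libraries (bars, percent), split by how the gene lies relative to the spans of the other genes in the count table. Genes wholly inside another gene were at 0 in 96.9% or 97.4%, and genes free of overlap in 17.0%; FOSB and JUNB belong to the bar at the far right.

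Levels were compared between genes only per length, as CPM per kilobase of all annotated exons. In control cells IER2 was highest at 14.3 ± 1.23 CPM per kilobase (SD, n = 3), followed by JUND at 13.8 ± 0.434 and FOSL2 at 13.2 ± 0.184. The ranges of IER2 and JUND overlapped, as did those of JUND and FOSL2. EGR1 followed at 11.9 ± 1.13 and JUN at 7.85 ± 0.374, and their ranges stood apart. FOSL1 at 6.65 ± 0.782 and FOS at 6.05 ± 0.223 overlapped, and ATF3 was lowest at 0.7998 ± 0.0290. With G1, JUND led at 17.2 ± 1.54, FOSL1 stood at the third place with 12.3 ± 0.901, its range overlapping that of IER2 at 11.99 ± 0.87, and EGR1 at the sixth with 6.08 ± 0.137. With G7 the order of control cells held except that FOSL1, at 9.51 ± 1.36, stood before JUN, at 8.97 ± 0.149, with overlapping ranges. The order depends on the length used. With the longest transcript in place of all exons, FOS in control cells was at 9.07 ± 0.334 CPM per kilobase, above JUN at 7.85 and FOSL1 at 7.52 ± 0.884, and FOSL2 at 14.1 ± 0.196 stood above JUND at 13.8.

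The Fos family, whose proteins enter AP-1 only as partners of Jun, was taken first. FOS (chromosome 14, 75278774 to 75282230), the founding member, had 18.9, 20.3 and 19.5 CPM in the control libraries, here and below in replicate order, 11.9, 9.64 and 9.88 in those with G1 and 19.3, 18.2 and 16.9 in those with G7. All 3 G1 libraries lay below every control and G7 library, while control and G7 libraries overlapped. The log2 change with G1 was -0.91 ± 0.092 (SE) at adjusted p = 1.22e-07 by the quasi-likelihood test of edgeR, adjusted by Benjamini-Hochberg over all genes tested, and every adjusted p given for a gene below comes from it unless another tool is named. With G7 it was -0.11 ± 0.084 at adjusted p = 0.363. The direct difference, G1 minus G7, was -0.79 ± 0.090 at adjusted p = 1.16e-06.

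FOSL1 (chromosome 11, 65892049 to 65900573), which encodes FRA-1, moved the other way. It had 10.96, 12.8 and 13.9 CPM in control cells, 24.6, 21.3 and 23.6 with G1 and 17.1, 15.9 and 20.8 with G7. The 3 groups did not overlap, with control lowest, G7 between and G1 highest, and G7 replicate 3 was the G7 library closest to G1. The log2 change was 0.87 ± 0.106 with G1 (adjusted p = 1.22e-06) and 0.52 ± 0.108 with G7 (adjusted p = 0.00203), and G1 exceeded G7 by 0.36 ± 0.097 (adjusted p = 0.00567, all 3 from edgeR). Among the 13264 genes tested, FOSL1 ranked 448 from the top with G1 and 326 from the top with G7. Without G7 replicate 3 its change with G7 was 0.39 (adjusted p = 0.00484, edgeR).

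FOSL2 (chromosome 2, 28392448 to 28417312), which encodes FRA-2, was the most even member. It had 93.3, 94.2 and 95.9 CPM in control cells, 98.2, 95.7 and 97.4 with G1 and 95.4, 96.8 and 92.6 with G7. The groups overlapped in every comparison, and the log2 change was 0.038 ± 0.043 with G1 and 0.0057 ± 0.042 with G7 (edgeR adjusted p = 0.459 and 0.946). These SEs leave room for small changes, so the values do not show that FOSL2 stayed the same.

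The make-up of the measured Fos family RNA was compared as shares of reads per exon base within each library, which no scaling between libraries can alter. FOS made up 23.4% ± 0.745 of it in control cells (SD, n = 3), 11.1% ± 0.834 with G1 and 19.7% ± 1.67 with G7. FOSL1 made up 25.6% ± 1.97, 42.2% ± 1.19 and 33.5% ± 3.84, and FOSL2 51.0% ± 1.58, 46.7% ± 1.66 and 46.8% ± 2.37. The ratio of FOSL1 to FOS per exon base was 0.995, 1.08 and 1.22 in control libraries, 3.56, 3.79 and 4.10 with G1, and 1.53, 1.499 and 2.12 with G7. This ratio, picked after its values were known, was on average 3.48 times the control value with G1 and 1.54 times with G7, and the 3 groups did not overlap. Each of the 3 comparisons gave p = 0.1 in a two-sided exact permutation test of 3 against 3 libraries. It was 0.1 after Benjamini-Hochberg adjustment, and 0.1 is the smallest p that design allows. Groups that do not overlap can give no other p in this test, so nothing is concluded from it. Other pairs of genes were not compared in this way. With the longest transcript as length the ratio was 0.750, 0.817 and 0.919 in control libraries, so whether FOSL1 or FOS was higher there depends on the length, while the ratios between groups do not. The summed Fos family level was 25.9 ± 1.09 CPM per kilobase in control cells, 29.1 ± 1.39 with G1 and 28.4 ± 0.809 with G7. With the longest transcript as length it was 30.7 ± 1.28, 33.2 ± 1.68 and 33.3 ± 0.865, so the order of G1 and G7 depends on the length.

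**Figure D2:**
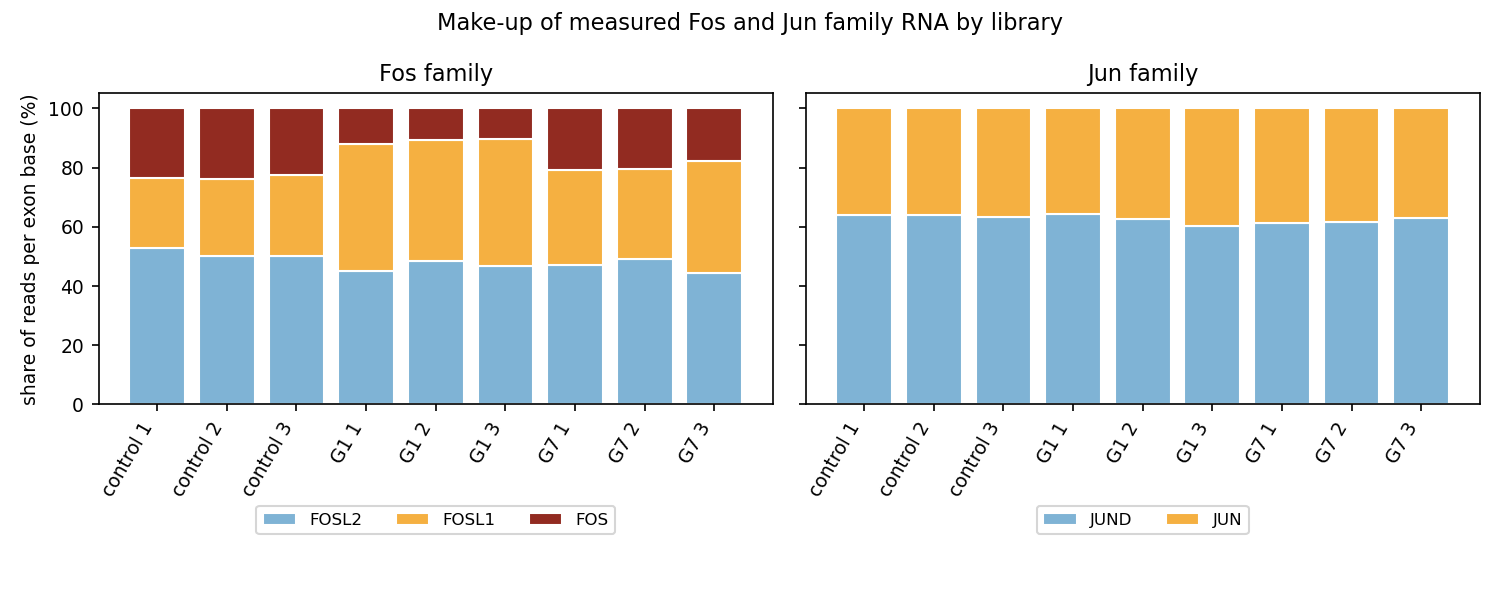
Share of reads per exon base (percent, stacked bars) of FOS, FOSL1 and FOSL2 within the Fos family and of JUN and JUND within the Jun family, in each of the 9 libraries; FOSB and JUNB are left out. The mean FOS part is 23.4% in control and 11.1% in G1 libraries and the FOSL1 part 25.6% and 42.2%, while JUN stays between 36.3% and 37.9% of its family on average.

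Jun proteins dimerise with Fos proteins or with each other. JUN (chromosome 1, 58780788 to 58784327) had 26.6, 27.5 and 29.2 CPM in control cells, 37.3, 33.9 and 38.7 with G1 and 31.7, 31.2 and 32.3 with G7. The 3 groups did not overlap, in the same order as for FOSL1. The log2 change was 0.39 ± 0.065 with G1 (adjusted p = 4.49e-05) and 0.19 ± 0.065 with G7 (adjusted p = 0.0429), and G1 exceeded G7 by 0.203 ± 0.062 (adjusted p = 0.0126, all from edgeR). The call with G7 was lost under 12 of 17 alternatives, where the change lay between 0.16 and 0.20. They were upper quartile scaling, no filter, DESeq2, glmTreat, only 2 groups, leaving out mitochondrially encoded genes, and leaving out control replicate 1 or 2, G1 replicate 1 or any G7 replicate. The call of G1 against G7 ended with glmTreat and with upper quartile scaling (0.14, adjusted p = 0.0727 in edgeR). It also ended without G1 replicate 3 (0.16, adjusted p = 0.0709 in edgeR).

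JUND (chromosome 19, 18279760 to 18281622), the Jun gene usually expressed in resting cells, had 24.9, 25.6 and 26.5 CPM in control cells, 35.3, 29.98 and 30.9 with G1 and 26.6, 26.4 and 29.1 with G7. G1 lay above both other groups, which overlapped. The log2 change was 0.32 ± 0.073 with G1 (adjusted p = 0.001) and 0.094 ± 0.073 with G7 (adjusted p = 0.392), and G1 exceeded G7 by 0.22 ± 0.0696 (adjusted p = 0.0133, all from edgeR). That last call ended with glmTreat and with upper quartile scaling (0.17, adjusted p = 0.065 in edgeR). It also ended without G1 replicate 1 (0.17, adjusted p = 0.0823 in edgeR). JUN made up 36.3% ± 0.384 of the measured Jun family reads per exon base in control cells, 37.6% ± 2.02 with G1 and 37.9% ± 0.911 with G7 (SD, n = 3), and JUND the rest. The summed level of JUN and JUND was 21.6 ± 0.807 CPM per kilobase in control cells, 27.6 ± 1.92 with G1 and 23.7 ± 0.927 with G7.

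EGR1 (chromosome 5, 138465490 to 138469315), a zinc finger factor that ERK switches on through SRF and its ETS partners, had 33.4, 38.5 and 40.2 CPM in control cells, 18.8, 18.8 and 19.6 with G1 and 34.6, 35.5 and 38.3 with G7. G1 lay below all other libraries, and control and G7 overlapped. The log2 change was -0.98 ± 0.075 with G1 (adjusted p = 2.74e-09) and -0.053 ± 0.068 with G7 (adjusted p = 0.632), and G1 minus G7 was -0.92 ± 0.073 (adjusted p = 1.28e-08, all from edgeR). EGR1 was the member with the smallest adjusted p in the comparisons of G1 with control and with G7.

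ATF3 (chromosome 1, 212565334 to 212620777), a bZIP factor that binds DNA with itself or with Jun proteins, was the rarest tested member. It had 42, 49 and 53 counts in control libraries, 31, 22 and 28 with G1 and 67, 50 and 68 with G7, or 3.17, 3.37 and 3.15, then 1.84, 1.16 and 1.797, then 3.10, 3.10 and 3.17 CPM. G1 lay below all other libraries. The log2 change was -1.03 ± 0.19 with G1 (adjusted p = 1.29e-04) and -0.046 ± 0.16 with G7 (adjusted p = 0.875), and G1 minus G7 was -0.98 ± 0.18 (adjusted p = 2.25e-04, all from edgeR). With so few counts its SE was the widest of the 8 genes.

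IER2 (chromosome 19, 13150415 to 13154908), an immediate early gene of nuclear function, had 45.9, 39.5 and 46.2 CPM in control cells, 38.4, 38.4 and 33.8 with G1 and 49.7, 49.98 and 38.5 with G7. G1 lay below both other groups by a narrow margin, and G7 replicate 3 sat with G1 rather than with G7 replicates 1 and 2. The log2 change was -0.25 ± 0.091 with G1 (adjusted p = 0.0253) and 0.066 ± 0.089 with G7 (adjusted p = 0.648), and G1 minus G7 was -0.32 ± 0.089 (adjusted p = 0.00721, all from edgeR). The fall with G1 was not called with glmTreat. It was also not called without control replicate 1 (-0.22, adjusted p = 0.0893 in edgeR) or 3 (-0.21, 0.121) or G1 replicate 3 (-0.19, 0.109). Without G7 replicate 3, IER2 was called higher with G7 (0.19, edgeR adjusted p = 0.0496).

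**Figure D3:**
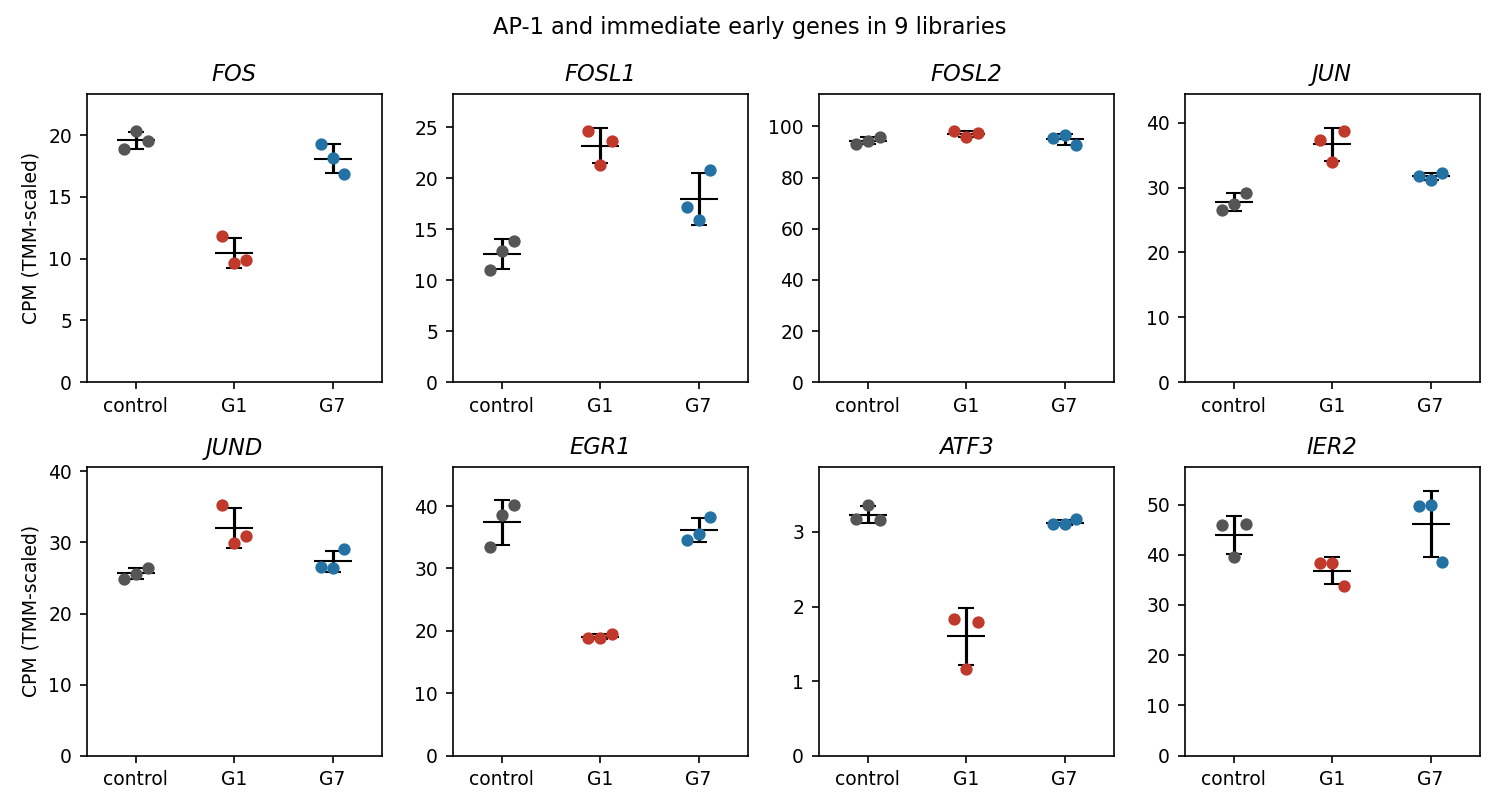
CPM of the 8 tested genes (vertical axes from 0, in CPM) in control, G1 and G7 libraries; points are libraries, horizontal bars the mean and whiskers the SD of 3. FOS, EGR1 and ATF3 sit apart only in G1, FOSL1 and JUN step up from control to G7 to G1, and FOSL2 overlaps throughout.

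**Figure D4:**
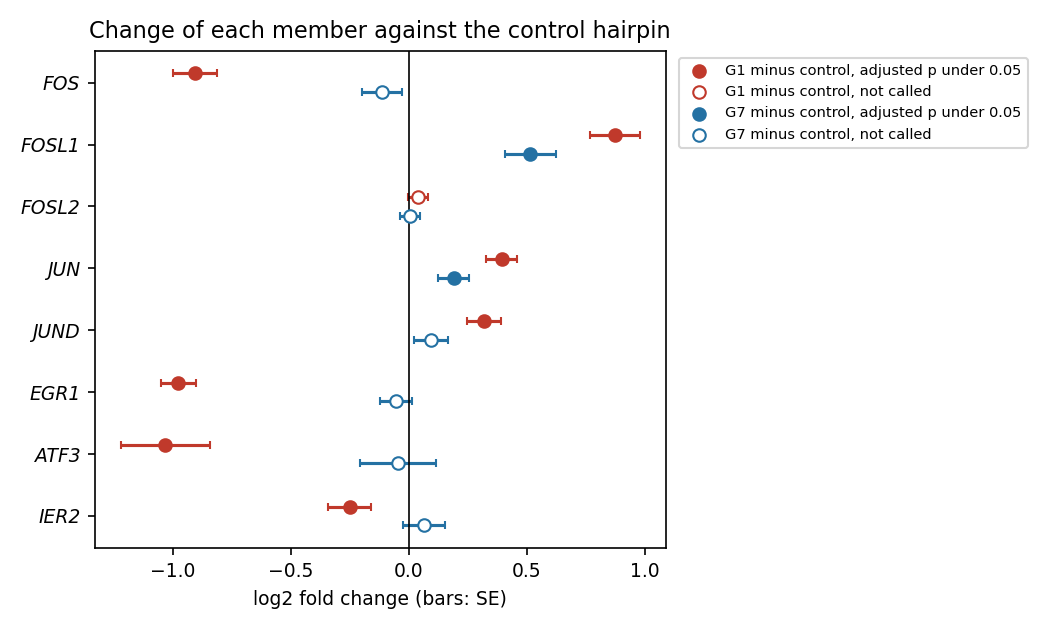
Log2 fold change of each tested gene against the control hairpin (horizontal axis, whiskers are SE), with G1 in red and G7 in blue; filled points had an adjusted p under 0.05 in edgeR. G1 has 7 filled points, 4 to the left and 3 to the right, and G7 has 2, FOSL1 and JUN.

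These counts need the background of each comparison. With G1, 7 of 8 tested members were called, 3 higher and 4 lower, where 59.1% of all 13264 genes were called (30.4% higher, 28.7% lower). With G7, 2 of 8 were called, both higher, where 22.7% of all genes were (13.1% higher), and at an unadjusted p under 0.05 the same count was 2 higher and 0 lower. Between the hairpins 7 of 8 were called, 3 higher with G1 and 4 lower, against 44.9% of all genes, and upper quartile scaling left 1 higher and 4 lower. Groups did not overlap for 7 of 8 members with G1, for 2 of 8 with G7 and for 7 of 8 between the hairpins, where 64.1%, 35.3% and 53.6% of all genes did not. By direction, 3 members lay wholly above control and 4 wholly below with G1 (32.5% and 31.6% of all genes), 2 wholly above with G7 (19.3%), and 3 wholly above and 4 wholly below G7 in the comparison of the hairpins (27.0% and 26.6%). The members' median log2 change was -0.11 with G1 and 0.036 with G7, beside -0.011 and 0.0093 over all genes. With G1 members moved both ways, and with G7 most were not called. Against a change of 1.5-fold, glmTreat of edgeR called EGR1, ATF3, FOS and FOSL1 with G1, EGR1 between the hairpins and 0 members with G7 (0 also at an unadjusted p under 0.05). Both comparisons with control used the same 3 control libraries.

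Promoter sequence was looked at for the genes that fell and those that rose. The RefSeq table of promoters (GRCh38.p14) held 9 of the 10 genes, FOSL1 being the one without an entry, and the 250 bases before each start were searched on both strands. The motifs were the CRE TGACGTCA, the wider CRE-like TGACNTCA, which includes the CRE, the AP-1 site TRE TGANTCA, the SRF site called the CArG box, the EGR site GCGNGGGCG, the stress element TGATGNAA of C/EBP and ATF factors, and the CCAAT box CCAAT. The windows of 4 genes are shown because they held at least 1 match other than CCAAT, with those matched letters in capitals, written 5′ to 3′ on the strand of the gene. They are EGR1 (chr5:138465229-138465478, plus strand), the first of the 2 ATF3 starts (chr1:212565157-212565406, plus), JUN (chr1:58784048-58784297, minus) and JUND (chr19:18281623-18281872, minus).
EGR1: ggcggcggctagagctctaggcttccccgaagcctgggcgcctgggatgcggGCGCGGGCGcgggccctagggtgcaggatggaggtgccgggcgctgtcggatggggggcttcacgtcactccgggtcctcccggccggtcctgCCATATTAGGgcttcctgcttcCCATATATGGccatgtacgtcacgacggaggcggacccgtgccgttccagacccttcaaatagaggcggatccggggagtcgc
ATF3: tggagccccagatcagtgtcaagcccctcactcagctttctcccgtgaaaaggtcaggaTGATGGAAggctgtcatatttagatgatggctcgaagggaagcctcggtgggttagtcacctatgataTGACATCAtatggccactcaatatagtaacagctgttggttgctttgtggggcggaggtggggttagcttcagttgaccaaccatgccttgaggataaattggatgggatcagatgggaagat
JUN: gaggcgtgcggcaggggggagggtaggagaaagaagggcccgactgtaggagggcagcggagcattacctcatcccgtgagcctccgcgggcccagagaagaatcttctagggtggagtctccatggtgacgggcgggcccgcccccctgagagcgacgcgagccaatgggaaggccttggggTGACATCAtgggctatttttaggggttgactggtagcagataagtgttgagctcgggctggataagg
JUND: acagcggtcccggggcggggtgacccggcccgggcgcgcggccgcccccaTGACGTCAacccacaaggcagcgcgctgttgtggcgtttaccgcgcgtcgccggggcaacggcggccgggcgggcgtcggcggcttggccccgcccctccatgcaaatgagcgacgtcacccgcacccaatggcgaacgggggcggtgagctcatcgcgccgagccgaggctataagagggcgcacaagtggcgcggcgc
EGR1 held 2 CArG boxes, which 1.16% of 35116 promoter windows hold at least once, and 1 EGR site, which 8.41% hold. ATF3 and JUN held the same CRE-like letters, TGACATCA, at 123 to 116 and at 67 to 60 bases before the start, and JUND held the full CRE at 200 to 193. CRE-like letters stand in 6.87% of all windows and the CRE in 1.65%. ATF3 also held TGATGGAA, a match to the stress element found in 3.14%. The CRE-like letters thus stood in 1 gene that fell with G1 and in 2 that rose. The CCAAT letters, common at 32.0% of windows and not capitalised here, stood in JUN, JUNB, JUND and ATF3. No TRE, which 6.57% of windows hold, lay in any of the searched windows. The TRE letters need not be the only ones AP-1 binds, so this does not show that AP-1 sites are absent. FOS, FOSB, FOSL2 and IER2 matched none of the 7 motifs in their windows, which says nothing of sites outside these windows or of their factors.

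The genes around AP-1 come from lists made with earlier results of these data known. Their counts stand beside the shares of all genes called, which were 30.4% higher and 28.7% lower with G1, 13.1% and 9.64% with G7, and 23.3% and 21.6% for G1 against G7. All 12 genes of the list named integrated stress genes around ATF3 fell with G1 (median -1.12, beside -0.011 over all genes). That list also holds genes that answer stress in the endoplasmic reticulum, such as HSPA5, HERPUD1 and XBP1. It does not stand for the integrated stress response alone. ATF4, the factor that acts on the ATF3 gene under stress, changed by -0.55 (edgeR adjusted p = 1.24e-09), ASNS, an asparagine synthetase, by -2.43, HERPUD1, of protein degradation at the endoplasmic reticulum, by -2.54, the chaperone HSPA5 by -1.97 and the factor XBP1 by -0.99. With G7, 6 of 12 fell (median -0.27), with HSPA5 at -0.92 and HERPUD1 at -0.70, and 11 of 12 were lower with G1 than with G7. ATF3 itself had its fall with G1 but was not called with G7.

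Of 23 tested other immediate early genes, 7 rose and 4 fell with G1 (median -0.0003), so the list did not move one way, and 7 of 23 is close to the 30.4% of all genes called higher. BTG2, an antiproliferative gene, changed by -1.03 (edgeR adjusted p = 6.70e-10) and the factor KLF4 by -0.63, the stress gene GADD45B by -0.28, while KLF10 rose by 0.59 and the small GTPase gene RHOB by 0.63. EGR2, a relative of EGR1, had 1.22 CPM in control cells, 0.336 with G1 and 0.754 with G7 and changed by -1.85 with G1 (adjusted p = 2.53e-04 in edgeR), whereas EGR3 rose by 0.72 (adjusted p = 0.024). EGR3 was picked after its values were seen. With G7, 6 rose and 1, KLF4, fell (median 0.11). The kinase gene SGK1 rose by 0.43 and KLF10 by 0.38. Between the hairpins 5 were higher with G1 and 7 lower, or 4 and 10 with upper quartile scaling.

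MAP kinase genes that act on AP-1 were higher with G1 in 9 of 14 and lower in 1 (median 0.25), where 30.4% of all genes were higher. RPS6KA4, a nuclear kinase that phosphorylates histone H3 and CREB, rose by 0.896 (edgeR adjusted p = 2.00e-08), MAP2K4, which activates JNK, by 0.61 and MAPK9, which encodes JNK2, by 0.40. The gene that fell was RPS6KA5, a close relative of RPS6KA4, at -0.49. With G7, 6 rose, with MAPK9 at 0.21 and RPS6KA4 at 0.38, and 1, RPS6KA5 again, fell (median 0.15). Of 8 genes of the SRF arm and EGR1 corepressors, 3 rose and 1 fell with G1 (median 0.053), again near the share over all genes. SRF rose by 0.44 and its ETS partner ELK3 by 0.25, MRTFA was at 0.15 (adjusted p = 0.0467, edgeR) and MRTFB at -0.11 (0.0332). The count was 2 higher and 0 lower without control replicate 1 or 2 or any G1 replicate, and with DESeq2. With G7, SRF (0.204) and ELK3 (0.22) were called, and 1 of them was lost without control, G1 or G7 replicate 1, with only 2 groups, and with upper quartile scaling or DESeq2.

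Of 10 other bZIP partners of AP-1 tested, 3 fell with G1, near the 28.7% of all genes called lower. Only 1 rose, where 30.4% of all genes did, and 6 were not called (median -0.10). JDP2, a repressor that pairs with Jun proteins, changed by -0.53, ATF2, a Jun partner, by -0.41 and BATF2 by -0.96, while MAFG rose by 0.21 (edgeR adjusted p = 7.65e-08, 9.69e-07, 0.0175 and 0.00754). BATF2 was rare, with 107 counts over all 9 libraries. Upper quartile scaling left 0 higher and 3 lower. With G7, ATF2 fell by 0.19 (adjusted p = 0.00819, edgeR), a call that ended without control replicate 1, and JDP2 was at -0.12 (0.0866). Without G7 replicate 3, or with upper quartile scaling, 2 were called lower. Genes for turnover of AP-1 RNA and protein were split with G1, 4 higher and 4 lower of 10 (median 0.041, beside 30.4% and 28.7% of all genes). ELAVL1, which stabilises AU-rich messages, rose by 0.598, HNRNPD by 0.57 and the decay factor KHSRP by 0.44, while ZFP36L1, which promotes decay of such messages, changed by -0.38. ZFP36L2, a relative of ZFP36L1, rose by 0.15, and the ubiquitin ligase genes DET1, FBXW7 and ITCH changed by -0.61, -0.17 and -0.11. With G7, ELAVL1 (0.23) and ZFP36L2 (0.19) rose and the other 8 were not called.

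Of 18 textbook AP-1 target genes 10 were tested, and MMP1, MMP3, MMP10, PLAU and TIMP1 were listed at 0, of which MMP1, MMP10 and TIMP1 lie wholly inside another gene. With G1, 5 rose and 3 fell (median 0.18), or 3 and 3 with upper quartile scaling. HBEGF, an EGFR ligand, stood at 19.97 CPM in control cells and at 6.17 with G1 (log2 change -1.69, edgeR adjusted p = 4.13e-11), and the adhesion receptor gene CD44 changed by -0.32, while CCND1, cyclin D1, rose by 0.21, the urokinase receptor gene PLAUR by 0.34, the chemokine gene CXCL8 by 0.19 and SPP1, osteopontin, by 0.16. The third to fall was the collagenase gene MMP13, at -1.02. With G7, 5 rose and 5 were not called (median 0.10), with CXCL8 at 0.61, SPP1 at 0.36, PLAUR at 0.35 and CCND1 at 0.11. HBEGF had -0.076 with G7 (adjusted p = 0.54, edgeR). Between the hairpins 1 was higher with G1 and 5 were lower, or 0 and 5 with upper quartile scaling.

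Heat shock genes, fixed as a sign of handling because dissociation and delay can raise them together with FOS and EGR1, rose with both hairpins, in 8 of 8 with G1 (median 0.64, where 30.4% of all genes rose) and 7 of 8 with G7 (median 0.30, where 13.1% did). Their summed level was 3888 to 4148 CPM in control libraries, 9358 to 9709 with G1 and 5373 to 5711 with G7, with HSP90AA1 at 1.36 and HSPA8 at 1.39 with G1. With G1 they moved opposite to FOS, EGR1, ATF3 and IER2, and the same way as FOSL1 (0.87), JUN (0.39) and JUND (0.32). The part of handling in these results was not tested.

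**Figure D5:**
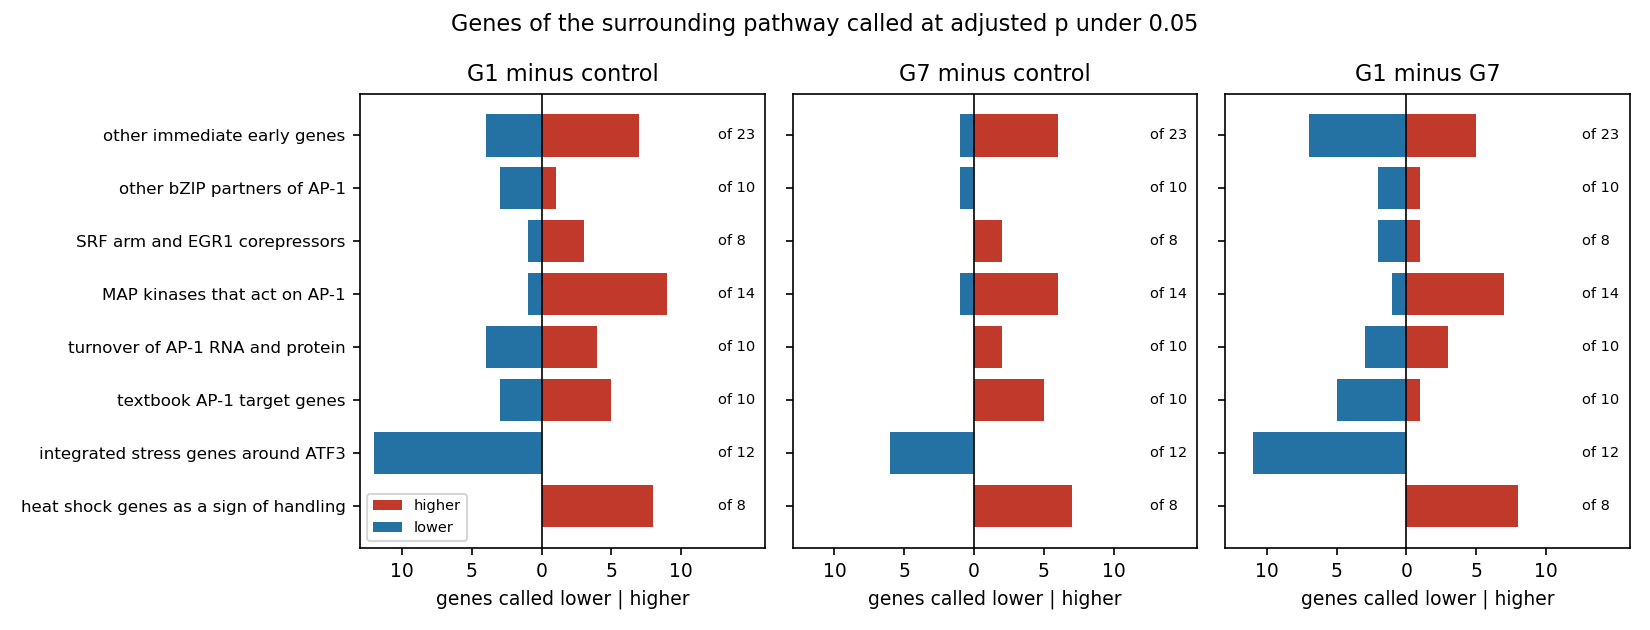
Number of genes called higher (red, to the right) and lower (blue, to the left) at an adjusted p under 0.05 in 8 fixed lists, with the number tested at the right edge, for G1 against control, G7 against control and G1 against G7. Stress genes were lower in 12 of 12 with G1, heat shock genes higher in 8 of 8, and the other immediate early genes split 7 to 4.

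Across the 9 libraries, EGR1, FOS and ATF3 ran together. Members were compared by the Pearson correlation of log2 CPM, with a small offset added to the CPM. It was 0.953 between FOS and EGR1, 0.958 between FOS and ATF3 and 0.941 between EGR1 and ATF3. JUN and FOSL1 had 0.961, and FOS and FOSL1 -0.798. Libraries of 1 group share a hairpin, so these values mostly restate the group means and carry no p. Other genes were compared with members by log2 CPM without an offset. Among 8588 genes with a mean of at least 10 CPM, those most like FOS were BORCS5 (0.992), CELSR1 (0.99) and ZNF516 (0.989). Those most like EGR1 were C3 (0.998), TUBG2 (0.994) and SEZ6L2 (0.993), and those most like ATF3 were ANKRD42 (0.98), ANXA8L1 (0.975) and DOCK1 (0.974). FOSL1 was most like BAG3 (0.994), which is also in the heat shock list, TNS4 (0.993) and CFAP20 (0.991), and JUN was most like CSNK1G2 (0.985), PPP6R1 (0.984) and NACC1 (0.984).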

How the data were processed

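Polyadenylated RNA of 9 HCC827 libraries was sequenced from strand-marked (dUTP) libraries. The deposited values are raw read counts per Ensembl gene, not normalized; TopHat2 2.1.0, HTSeq 0.6.0 and build hg38 (GRCh38) are named in the submitters' processing notes. The sources used here give no annotation release, strand setting or read filter. Identifiers of 57055 rows matched GENCODE 29, and the other 3620 held 0.025% of counts.

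Genes were kept by filterByExpr (13264), scaled by TMM and fitted with edgeR 4.0.16 (glmQLFit, glmQLFTest; R 4.3.3) as a mean per group over all 9 libraries. Calls were made at a Benjamini-Hochberg adjusted p under 0.05. A count of 0 is compatible with 3 counts, at most 0.227 CPM, for counting error alone. The procedure was tested on simulated counts. Members and lists were chosen with earlier results of these data known. Genes named are all members, those of each list with the smallest p-values (4 with G1, 2 with G7), the 3 most correlated genes for 5 members, and those said to be picked after their values were seen. Some genes stand in 2 lists (SRF, MAFF, ZFP36), and some list genes that enter the counts are not reported here by name. Alternatives were RLE and upper quartile scaling, no filter, DESeq2 1.42.0, glmTreat, only the 2 groups compared, a replicate block, no mitochondrially encoded genes, and leaving out each library.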

Additional observations from a re-analysis of the deposited data

How the results depend on the processing

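Under all alternatives other than glmTreat, the members called with G1 against control numbered 6 or 7 and those between the hairpins 5 to 7. With glmTreat against 1.5-fold the members called were 4 with G1, 0 with G7 and 1 between the hairpins, and all genes called were 1217, 10 and 316, since that test asks for a larger change. With G7 the members called numbered 1 with upper quartile scaling, without a filter, with DESeq2, with only the 2 groups compared and without mitochondrially encoded genes, because JUN lost its call. Leaving out 1 library gave 6 to 7 members with G1, 1 to 2 with G7 and 6 to 7 between the hairpins, and over all genes 7095 to 8260, 2260 to 3321 and 5068 to 6036. Upper quartile scaling moved the median of all genes by -0.087 with G1 and split all calls into 3066 higher and 4815 lower with G1 (4031 and 3806 with TMM), 1398 and 1603 with G7 (1735 and 1279), and 2346 and 3751 between the hairpins (3092 and 2870). No called change of a member reversed its sign. Of 510 counts of called list genes under alternatives, 461 were within 1.5 times the reported count. With the longest transcript as length, FOS made up 29.6% of Fos family RNA in control cells and 14.6% with G1, and FOSL1 24.5% and 41.8%.

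The replicate numbers were not taken as pairing. Correlations of deviations from the group means ran from -0.076 to 0.199 over 9 same-numbered pairs and from -0.191 to 0.186 over 18 others, and 4 of 9 libraries correlated best with their own number. With the replicate number as a block, 7, 2 and 7 members were called in the 3 comparisons, and 7909, 3117 and 6069 genes in all. ATF3, at 22 to 68 counts per library, is limited most by depth.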
